A study of Homo sapiens with 6 samples.

Results

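Proline and glutamine are made from and turned back into glutamate by a small set of enzymes, and 8 of their genes were followed in dermal fibroblasts depleted of the zinc-finger gene ZNF469. The 8 genes were taken by symbol from the deposited count table: ALDH18A1, PYCR1, PYCR3, PRODH, ALDH4A1, GLUL, GLUD1 and OAT. A row was found for 7 of them among the 21151 genes listed, and all 7 were abundant enough to be tested. No row named PRODH was found, and this gene is not analysed here. Genes were matched by symbol, and rows without a symbol were not searched for them. The cells were CCD-1064Sk (CRL-2076), a human skin fibroblast line, carrying short-hairpin RNAs against ZNF469 (shZNF469, 3 libraries) or control hairpins (shControl, 3 libraries, labelled wild type for ZNF469). All cells were grown in Iscove's medium with fetal bovine serum, Primocin, an antibiotic-antimycotic mixture and GlutaMAX, a stable glutamine source, so that glutamine was supplied to both groups. The sources used here give neither the number of different hairpins nor their sequences. The design text calls the 3 libraries of a group technical replicates, so p-values measure only the spread between these libraries.

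Proline, the imino acid that shapes the collagen helix, is made in cells mainly from glutamate. The enzyme encoded by ALDH18A1 turns glutamate into the pyrroline intermediate, and the reductases encoded by PYCR1 (in mitochondria) and PYCR3 (in the cytosol) turn that intermediate into proline. OAT connects the same intermediate with ornithine. In the opposite direction PRODH oxidises proline and ALDH4A1 completes its return to glutamate. GLUL, glutamine synthetase, adds ammonia to glutamate, and GLUD1, glutamate dehydrogenase, links glutamate with the citric acid cycle.

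The promoters of ALDH18A1 and GLUL are shown because they belong to the members of the making arm of each amino acid that kept their call in every refit of the counts and for which RefSeq gives a window. RefSeq windows on GRCh38.p14 were found for 5 of the 8 members (ALDH18A1, ALDH4A1, GLUL, GLUD1 and OAT), with 7 windows in all. The 250 bases before the annotated start are given 5′ to 3′ on the minus strand, chr10:95656712-95656961 for ALDH18A1 and chr1:182391791-182392040 for GLUL, the upstream of its 2 starts, and capitals mark an E-box.
ALDH18A1: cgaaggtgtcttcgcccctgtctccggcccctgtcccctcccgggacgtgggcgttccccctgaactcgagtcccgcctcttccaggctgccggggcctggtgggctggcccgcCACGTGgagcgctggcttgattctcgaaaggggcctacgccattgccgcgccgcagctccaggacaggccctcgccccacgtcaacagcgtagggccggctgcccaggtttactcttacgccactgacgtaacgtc
GLUL: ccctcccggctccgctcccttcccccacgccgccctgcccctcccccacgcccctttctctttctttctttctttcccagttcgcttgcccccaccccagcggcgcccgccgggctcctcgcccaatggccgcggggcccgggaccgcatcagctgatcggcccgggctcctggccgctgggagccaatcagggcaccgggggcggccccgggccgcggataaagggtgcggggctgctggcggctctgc
Both strands were searched for 3 motifs, none of which contains another: TGATGNAA, the core of the composite element bound by ATF4 with C/EBP proteins, the E-box CACGTG, which reads the same on both strands, and the forkhead site GTAAACA. An E-box stood in ALDH18A1 only, with its first base at -136 from the start. Among all 35116 RefSeq windows of this length, 6.34% hold an E-box, 3.14% hold TGATGNAA and 2.98% hold GTAAACA. The last 2 motifs were not found in any of the 7 member windows.

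Total counts ran from 35417366 to 48298264 per library. ZNF469, the targeted gene, was lower in every knockdown library than in any control (log2 fold change -1.12, SE 0.09, edgeR adjusted p = 0.000873). The leading principal component of log2 CPM (scaled counts) held 30.5% of the variance. The second control library scored -10.2 on it, against -55.8 and -52.0 for controls 1 and 3. Knockdown scores ranged from 36.7 to 42.2. Pairwise correlation did not set this library apart: r was 0.957 with control 1 and 0.955 with control 3, and 0.949 between controls 1 and 3. Its total was 46911355 counts, against 35417366 and 38149616 in controls 1 and 3 and 41318439 to 48298264 in the knockdown. Whether depth bears on this component was not tested. Because of its score, results are also given without the second control library. All 12 fibroblast markers listed, collagen genes among them, were above 0 in all 6 libraries, and their sum was 32490 to 34860 TPM with control hairpins and 25624 to 27049 TPM in the knockdown, without overlap. The collagen markers were lower in mean TPM: COL1A1 went from 8286 to 2434, COL1A2 from 8959 to 4844 and COL3A1 from 1207 to 679. Of the other markers, all but PDGFRA (149 to 142 TPM) had a higher mean in the knockdown, led by VIM (9751 to 11983 TPM). Keratinocyte, melanocyte and endothelial lists had rows for 3 of 8, 2 of 7 and 3 of 6 markers, with no row named KRT5, KRT14, MLANA, TYR, PECAM1 or CDH5. The keratinocyte markers summed to 47.3 to 52.7 and 42.0 to 48.6 TPM in controls and knockdown, and the endothelial ones to 0.904 to 1.66 and 0.550 to 1.35 TPM, both overlapping. Within the keratinocyte sum KRT10 was called lower (log2 fold change -0.51, edgeR adjusted p = 0.019) and DSP higher (0.26, edgeR adjusted p = 0.0391). The 4 leukocyte markers with a row, of 7 listed, summed to 173 to 195 TPM with control hairpins and 204 to 245 TPM in the knockdown. No row named PTPRC was found. Most of this sum was CD68 in both groups (184 ± 11.4 and 229 ± 23.6 TPM), which did not pass (edgeR adjusted p = 0.146) and whose CPM overlapped. PMEL and MITF, the melanocyte markers with a row, summed to 38.0 to 42.4 TPM with control hairpins and 51.3 to 62.6 TPM in the knockdown. PMEL was called higher (log2 fold change 1.01, edgeR adjusted p = 0.000525) and MITF did not pass (edgeR adjusted p = 0.381). The part of these genes in the results below was not tested.

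On counts, transcripts of the proline-making enzymes were lower after ZNF469 knockdown and those of glutamine synthetase were higher, the latter not on TPM. Among the 7 members tested, 3 fell (PYCR1, ALDH18A1 and PYCR3), 2 rose (GLUL and ALDH4A1) and 2 did not pass (OAT and GLUD1), at an adjusted p under 0.05 in edgeR. Over all 16353 genes tested, 5.34% were called lower and 4.56% higher, 9.9% in all. DESeq2 also called 3 members lower and 2 higher, where it called 11.7% of its 14145 genes lower and 11.6% higher, 23.3% in all. Limma on log2(TPM + 1) called 2 members lower (PYCR1 and ALDH18A1) and 0 higher, against 3.85% of 14495 genes lower and 1.71% higher, 5.56% in all. Without the second control library, PYCR1 (log2 fold change -0.75, edgeR adjusted p = 0.00691), ALDH18A1 (-0.44, adjusted p = 0.0194) and GLUL (0.50, adjusted p = 0.00952) kept their calls, whereas PYCR3 and ALDH4A1 did not pass. The groups did not overlap for the 3 lower and 2 higher members of the edgeR test, where 15.7% of all tested genes were lower and 15.6% higher without overlap, 31.4% in all. The median log2 fold change was -0.05 over the members and 0.0039 over all genes tested. Values below are CPM (counts per 1000000 reads counted, scaled by TMM, the trimmed mean of M), fold changes are shZNF469 against shControl, and tests are edgeR's quasi-likelihood F-test with Benjamini-Hochberg adjustment over all tested genes. In bulk samples, fewer cells of a kind and less RNA per cell cannot be told apart.

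**Figure D1:**
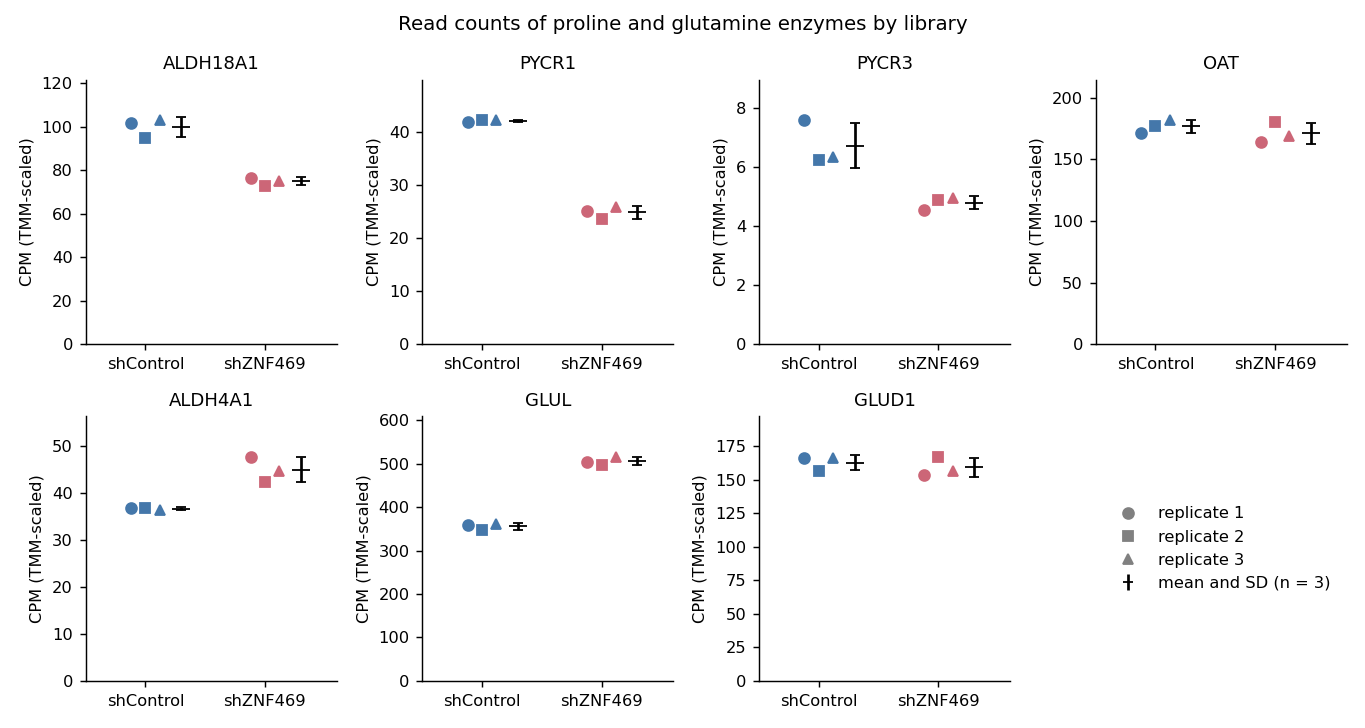
TMM-scaled CPM (y axis, from 0) of the 7 enzyme genes in each of the 3 shControl (blue) and 3 shZNF469 (red) libraries, with mean and SD beside them. PYCR1, ALDH18A1 and PYCR3 lie lower and GLUL and ALDH4A1 higher in all knockdown libraries, whereas the groups overlap for OAT and GLUD1.

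PYCR1, the mitochondrial reductase that makes proline, changed most. The gene (ENSG00000183010) lies on chromosome 17 (81932391 to 81937300 on GRCh38.p14). It was at 41.9, 42.2 and 42.2 CPM with control hairpins and at 25.1, 23.5 and 25.8 CPM in the knockdown. The controls were almost identical, and the highest knockdown library stayed far below the lowest control. The fall was 1.70-fold (42.1 ± 0.190 to 24.8 ± 1.17 CPM, SD, n = 3; log2 fold change -0.76, SE 0.06, edgeR adjusted p = 0.000638). On the authors' length-scaled TPM the level went from 48.6 ± 1.13 to 31.2 ± 2.98 TPM (log2(TPM + 1) difference -0.63, limma adjusted p = 0.0038). GENCODE release 29 places MYADML2 on the same strand and a pair of antisense genes across PYCR1, none of them with a row in the table, and without a stated strand setting any reads they gave would not be told apart from those of PYCR1.

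ALDH18A1, which commits glutamate to proline, fell as well but by less. The gene (ENSG00000059573) lies on chromosome 10 (95605941 to 95656711). Its levels were 102, 94.7 and 103 CPM with control hairpins and 76.5, 72.9 and 75.2 CPM in the knockdown, with no overlap. The fall was 1.33-fold (99.8 ± 4.48 to 74.8 ± 1.84 CPM; log2 fold change -0.41, SE 0.06, edgeR adjusted p = 0.00552). Per length the level went from 69.7 ± 3.00 to 51.5 ± 2.54 TPM (log2(TPM + 1) difference -0.43, limma adjusted p = 0.0128).

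PYCR3, the cytosolic reductase, was the least abundant member. It (ENSG00000104524) lies on chromosome 8 (143603210 to 143609575) and had between 201 and 294 reads per library. It stood at 7.58, 6.24 and 6.34 CPM with control hairpins and at 4.54, 4.86 and 4.95 CPM in the knockdown. The first control was the highest, and the other controls still lay above all knockdown libraries. The fall of 1.40-fold (6.72 ± 0.747 to 4.78 ± 0.214 CPM; log2 fold change -0.49, SE 0.12) passed narrowly (edgeR adjusted p = 0.044). It did not pass without any single library: adjusted p was 0.139, 0.094 and 0.0902 without shControl replicate 1, 2 and 3, and 0.139, 0.0842 and 0.0841 without shZNF469 replicate 1, 2 and 3.

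Of the breakdown arm only ALDH4A1 had a row under its symbol, and it rose. This gene, which oxidises the proline-derived intermediate to glutamate, lies on chromosome 1 (ENSG00000159423, 18871430 to 18902555). It was at 36.9, 36.8 and 36.3 CPM with control hairpins and at 47.7, 42.4 and 44.7 CPM in the knockdown, so that each knockdown library was above every control. The rise was 1.23-fold (36.7 ± 0.308 to 44.9 ± 2.68 CPM; log2 fold change 0.29, SE 0.06, edgeR adjusted p = 0.0241). It did not pass without shControl replicate 1, 2 or 3 (adjusted p = 0.0862, 0.0838 and 0.0879) or without shZNF469 replicate 1 or 3 (0.0847 and 0.0593), nor on TPM (28.0 ± 1.48 to 34.2 ± 1.04 TPM, limma adjusted p = 0.0879).

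Per length, the ratio of making to breaking enzymes among the members was lower in every knockdown library than in any control. The summed TPM of ALDH18A1, PYCR1 and PYCR3 was 4.43, 4.22 and 4.64 times that of ALDH4A1 in the controls. In the knockdown it was 2.43, 2.73 and 2.43 times, with no overlap. The ratio went from 4.43 ± 0.212 to 2.53 ± 0.172 (n = 3 each; difference on the log2 scale -0.81, exact permutation test, two-sided, p = 0.1, the smallest that 3 against 3 allows). This ratio was chosen after the values were seen. It sets members already called lower, without overlap on TPM, over ALDH4A1, already called higher and likewise without overlap. Its separation and its p-value were therefore fixed beforehand and add no support to those calls. PRODH, which takes the first step of breakdown, is not in this ratio. In the order of TPM among the members, PYCR1 stood at place 5 and ALDH4A1 at place 6 in the controls, and they changed places in the knockdown means, where their libraries overlapped (29.3 to 34.6 TPM for PYCR1 and 33.5 to 35.4 TPM for ALDH4A1).

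**Figure D2:**
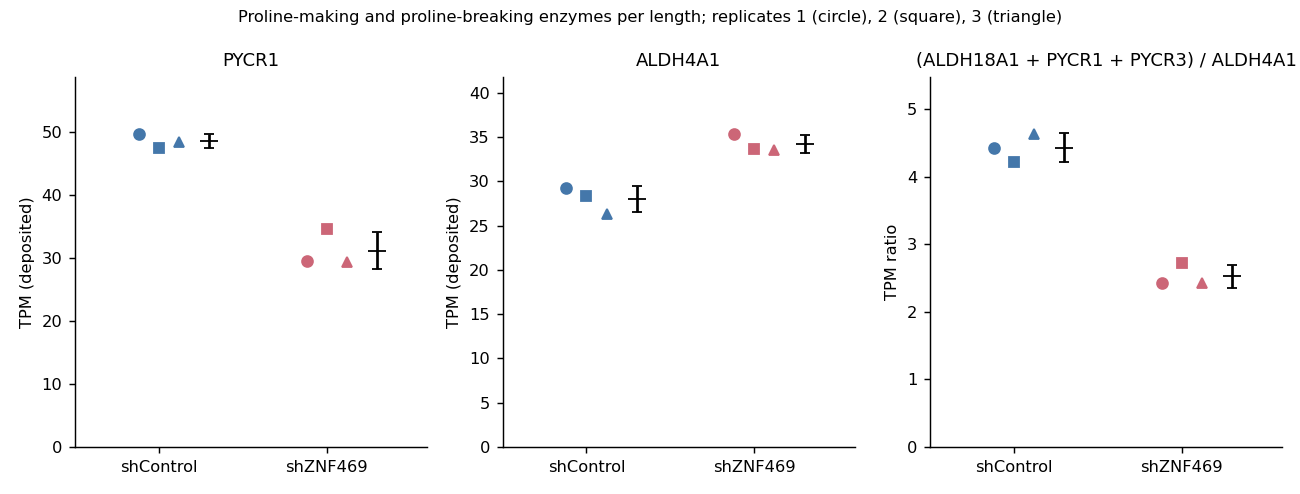
Deposited TPM of PYCR1 (left) and ALDH4A1 (middle), and the summed TPM of ALDH18A1, PYCR1 and PYCR3 divided by that of ALDH4A1 (right), in each library, with mean and SD (n = 3). In the ratio the controls lie between 4.22 and 4.64 and the knockdown libraries between 2.43 and 2.73.

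OAT and GLUD1, which join this pathway to ornithine and to the citric acid cycle, gave no call. OAT, on chromosome 10 (ENSG00000065154, 124397303 to 124418923), was at 172, 177 and 182 CPM with control hairpins and 164, 180 and 169 CPM in the knockdown. Its log2 fold change was -0.05 (95% interval -0.20 to 0.11, edgeR adjusted p = 0.692). GLUD1, on the same chromosome (ENSG00000148672, 87050202 to 87094843), was at 166, 156 and 166 CPM and then at 154, 167 and 156 CPM, with a log2 fold change of -0.03 (95% interval -0.19 to 0.12, adjusted p = 0.80). The groups overlapped for both, and a change within those intervals was not detectable here. GLUD1 overlaps SHLD2 on the other strand (mean count 922.5). Its near-identical copy GLUD2 was listed at 1.13 ± 0.302 and 1.02 ± 0.099 CPM, and reads of the 2 genes may have been split between them.

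GLUL, glutamine synthetase, had the largest rise among the members on counts, but not on TPM. The gene (ENSG00000135821) lies on chromosome 1 (182378098 to 182391790). It had 359, 347 and 361 CPM with control hairpins and 505, 497 and 516 CPM in the knockdown. Both groups were tight and well apart, with a 1.42-fold rise (356 ± 7.57 to 506 ± 9.66 CPM; log2 fold change 0.51, SE 0.04, edgeR adjusted p = 0.000903). This call held without each single library (adjusted p from 0.00258 to 0.0109).

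The deposited TPM of GLUL did not show this rise. It was 199, 193 and 128 TPM with control hairpins and 181, 214 and 202 TPM in the knockdown, so the groups overlapped (174 ± 39.5 and 199 ± 16.7 TPM; log2(TPM + 1) difference 0.22, limma adjusted p = 0.479). The third control, which had a similar CPM to the other controls, was listed far below them in TPM. Counts per TPM, scaled so that the median gene of a library is 1, would be alike in every library if 1 fixed transcript length had been used. For GLUL they were 1.52, 1.53 and 2.21 with control hairpins and 2.29, 2.03 and 1.96 in the knockdown. The first 2 controls thus stood below the other 4 libraries, and the reason was not tested. The gap between the count change and the TPM change was 0.29 on the log2 scale, wider than for 97.7% of 14831 genes, whose median gap in either direction was 0.0224. GENCODE lists 13 transcripts of GLUL, and RefSeq gives 2 starts that lie 449 bases apart. Among the other members PYCR1 had the next widest gap, -0.12.

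**Figure D3:**
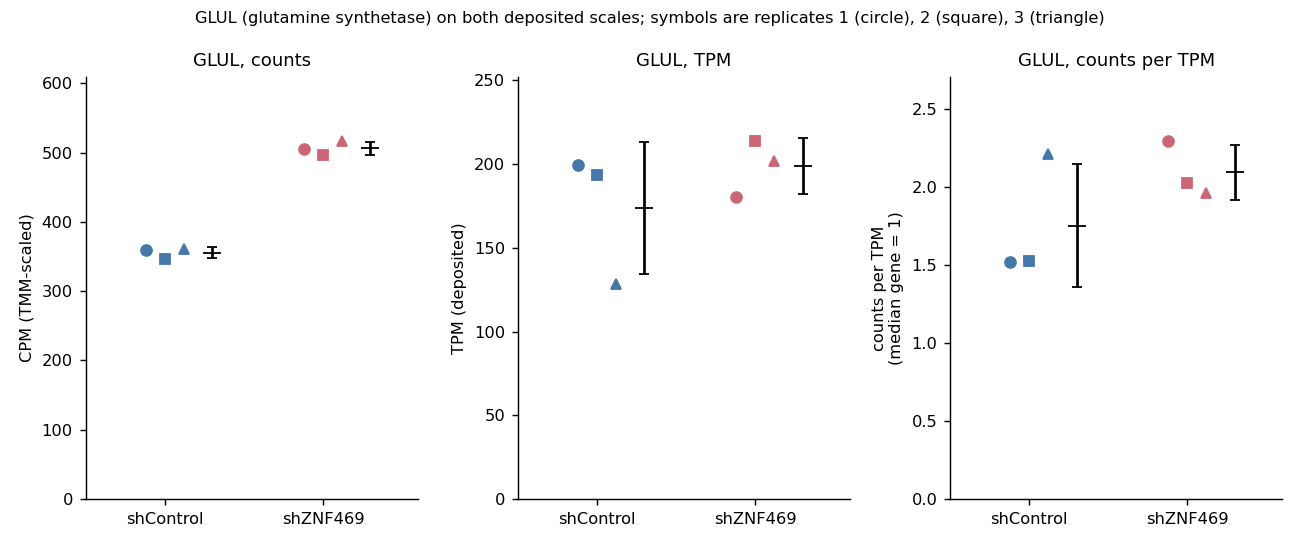
GLUL in each library as TMM-scaled CPM (left), deposited TPM (middle) and counts per TPM relative to the median gene of the library (right), with mean and SD (n = 3). Counts separate the groups (347 to 361 against 497 to 516 CPM), while TPM values overlap and the third control (triangle) has a higher count per TPM than the other controls.

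Most neighbouring genes of the network were not called, and those called were mostly lower. The 7 neighbouring lists held 6, 10, 13, 9, 20, 11 and 11 tested genes, in the order below. Of these genes 20 were called lower, 6 of them collagen chains, and 3 higher. In every list the share called lower was above the 5.34% of all genes tested, of which 4.56% were called higher. In a list of 6 or 11 genes 1 call is enough for that, so this does not show a shift across all lists. The proline and ornithine list (ODC1) and the regulator list (ATF4) held 1 lower gene each. Both held 0 without shControl replicate 1 or 3 or shZNF469 replicate 1. The lists were chosen with earlier results of these data known. Without 1 library the calls over these lists ranged from 13 to 20 lower and from 0 to 2 higher, lowest without shControl replicate 1 or shZNF469 replicate 1. Among 6 tested of 9 listed genes next to proline and ornithine, 1 fell and 0 rose (median log2 fold change -0.08). This was ODC1, which turns ornithine into the polyamine putrescine (59.7 ± 3.47 to 49.2 ± 1.55 CPM, log2 fold change -0.28, edgeR adjusted p = 0.0314). Its call was lost in 5 of the 6 refits without 1 library, all but that without shControl replicate 2, and on TPM (adjusted p up to 0.13 over all refits). PEPD, the peptidase that frees proline from dipeptides, did not pass (115 ± 1.33 and 111 ± 9.68 CPM).

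Of 10 tested of 12 listed genes of other glutamate-converting enzymes, most of them transaminases, 3 fell and 0 rose (median -0.14). PSAT1, the glutamate-using transaminase of serine synthesis, was at 30.9, 28.5 and 34.4 CPM with control hairpins and at 5.76, 5.77 and 5.54 CPM after knockdown (log2 fold change -2.46, edgeR adjusted p = 5.80e-05). GPT2, the mitochondrial alanine transaminase, fell from 9.76 ± 0.567 to 5.66 ± 0.921 CPM (log2 fold change -0.78, adjusted p = 0.0134), and BCAT1, which transfers nitrogen from branched-chain amino acids, from 127 ± 6.73 to 89.1 ± 9.80 CPM (-0.51, adjusted p = 0.0133). PSAT1 kept its call in all refits. The call of GPT2 did not hold without shControl replicate 1 or 3 or shZNF469 replicate 1, nor on unfiltered TPM. That of BCAT1 did not hold without shControl replicate 1 or 2 or shZNF469 replicate 1, nor on TPM.

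Of 13 amidotransferase genes, whose enzymes take nitrogen from glutamine, 2 fell and 1 rose (median -0.02). ASNS, asparagine synthetase, was at 25.8, 23.4 and 24.9 CPM and then at 11.3, 12.7 and 11.5 CPM, a 2.08-fold fall (log2 fold change -1.06, SE 0.08, edgeR adjusted p = 0.000587). CTPS1, which makes CTP, fell 1.37-fold. GFPT2, which starts hexosamine synthesis, rose 1.36-fold (28.3 ± 3.33 to 38.4 ± 1.45 CPM, edgeR adjusted p = 0.0247). It did not pass without shControl replicate 1 or 2 or shZNF469 replicate 1 or 2, nor on TPM (adjusted p up to 0.1 over all refits). CAD, which begins pyrimidine synthesis, did not pass in edgeR (adjusted p = 0.127) and was called lower by DESeq2 (log2 fold change -0.16, adjusted p = 0.0333).

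Among 9 glutathione genes 2 fell and 0 rose (median -0.08), and neither is an enzyme of glutathione synthesis. CHAC1, which degrades glutathione, fell 3.22-fold (9.50 ± 0.479 to 2.95 ± 0.379 CPM, edgeR adjusted p = 0.000675), and GGCT, which acts on gamma-glutamyl amino acids, fell 1.67-fold. GCLC, GCLM and GSS, the genes of glutathione synthesis itself, did not pass (log2 fold changes of -0.04, -0.04 and -0.08).

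Of 23 carrier genes listed 20 were tested, of which 5 fell and 1 rose (median -0.10). SLC7A5, an exchanger of glutamine for large neutral amino acids, was at 35.1, 35.5 and 33.0 CPM and then at 12.6, 13.4 and 12.5 CPM (2.69-fold lower, edgeR adjusted p = 0.000107). SLC25A13, the mitochondrial aspartate-glutamate carrier, fell 2.05-fold and SLC36A1, a lysosomal carrier of small amino acids such as proline, 1.35-fold. SLC1A4, a neutral amino acid carrier, and SLC3A2, the partner chain of SLC7A5, were the other lower carriers (log2 fold changes of -0.34 and -0.31), and neither passed without any 1 control library or shZNF469 replicate 1 (adjusted p up to 0.0842 for SLC1A4 and 0.0975 for SLC3A2 in these refits) or on TPM. The count of 5 lower carriers was 2 without shControl replicate 1 or 3 or shZNF469 replicate 1, 3 without shControl replicate 2, and 2 on TPM. SLC6A15, a neutral amino acid carrier that also takes up proline, rose from 4.11 ± 0.517 to 8.21 ± 1.35 CPM (log2 fold change 1.00, adjusted p = 0.0108). SLC1A5, a main importer of glutamine, did not pass (133 ± 1.21 and 123 ± 7.07 CPM). SLC36A1 and SLC6A15 did not pass when shControl replicate 1 or shZNF469 replicate 1 was left out, nor did SLC36A1 without shControl replicate 3. On TPM SLC36A1 did not pass, and SLC6A15 did not pass on unfiltered TPM.

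Of 12 regulators listed for these enzymes 11 were tested, of which 1 fell and 1 rose (median 0.13). ATF4, a transcription factor of the amino acid response, was at 281, 293 and 311 CPM with control hairpins and 224, 210 and 244 CPM after knockdown (log2 fold change -0.38, SE 0.07, edgeR adjusted p = 0.0162). It did not pass when any 1 control library or shZNF469 replicate 1 was left out (adjusted p up to 0.0748 over all refits). PPARG, a nuclear receptor, rose (log2 fold change 0.30, edgeR adjusted p = 0.0365). Its call was lost in all 6 refits without 1 library, with the replicate block and on TPM (adjusted p up to 0.134 over all refits). MYC, which is known to raise proline synthesis genes, did not pass in edgeR (37.7 ± 1.37 and 31.1 ± 3.26 CPM, adjusted p = 0.0823) but was called lower by DESeq2 (adjusted p = 0.00788) and by limma on log2(TPM + 1) (-0.34, adjusted p = 0.0449), though not without the TPM filter. KLF4, a transcription factor (log2 fold change 0.23, edgeR adjusted p = 0.0604), and PFAS, an amidotransferase of purine synthesis (-0.27, adjusted p = 0.0925), passed with DESeq2 only, as did LONP1, a mitochondrial protease (-0.29, adjusted p = 0.0728).

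Collagen chains, which are rich in proline, are given for scale. Of 11 listed and tested, 6 fell (COL1A1, COL1A2, COL3A1, COL5A1, COL5A2 and COL4A1) and 0 rose, with a median log2 fold change of -0.51. COL1A1 fell by 1.75 on the log2 scale and COL1A2 by 0.87, against 0.76 for PYCR1 and 0.41 for ALDH18A1.

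**Figure D4:**
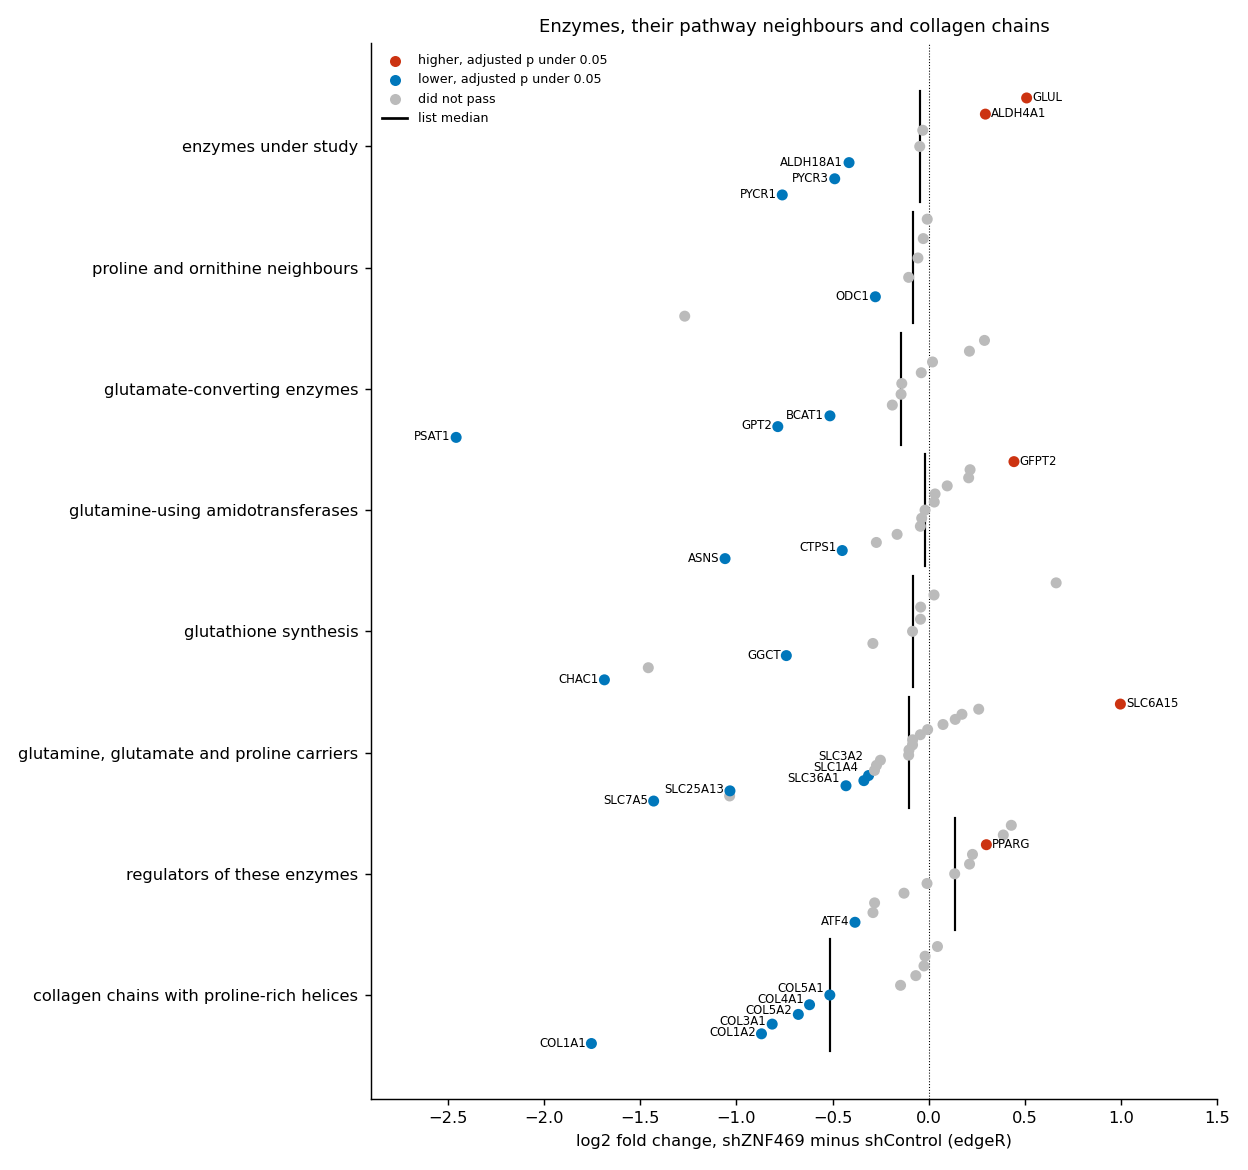
Log2 fold change (x axis, shZNF469 minus shControl) of every tested gene in the enzyme set and the 7 neighbouring lists, coloured by whether it passed at an adjusted p under 0.05, with the list median as a bar. Most neighbours did not pass, and those that passed lie mostly to the left of 0. PSAT1 at -2.46 and COL1A1 at -1.75 lie farthest to the left.

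Over the 6 libraries, the genes whose profile came closest to those of the 3 members chosen for this search are named as a description, since libraries of a group share its level. Likeness was the root-mean-square difference of centred log2 CPM among 9399 genes with a symbol and a mean of 10 CPM or more. TGM2, a transglutaminase (0.0219), WARS1, the tryptophanyl-tRNA synthetase (0.0432), and DDX39A, an RNA helicase (0.0449), were nearest to PYCR1. HSPA5, the main chaperone of the endoplasmic reticulum (0.0234), SRSF3, a splicing factor (0.0273), and MRPL47, a mitochondrial ribosomal protein (0.0316), were nearest to ALDH18A1. WIPI1, an autophagy protein (0.0263), HLA-E, a class I histocompatibility antigen (0.0348), and LETMD1, a mitochondrial membrane protein (0.0351), were nearest to GLUL.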

How the data were processed

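RNA of 6 libraries (3 per group) was sequenced after NEBNext Ultra RNA library preparation, per the labels' protocols. HISAT2, StringTie and GRCh38.p14 are named per the submitters' processing notes; tool versions, annotation, strand setting and low-value filters were not given in the sources used here. The deposited table holds whole-number counts per gene and library, and the TPM that the authors computed beside them. Of its 21151 rows 4195 carry an identifier but no symbol and stayed in the tests. The lowest TPM above 0 was 0.333 to 0.456 per library, so a listed 0 is no proof of absence. Counts were analysed with edgeR 4.0.16 in R 4.3.3: filterByExpr (minimum count 10), TMM scaling, quasi-likelihood F-test without covariates, Benjamini-Hochberg over 16353 genes, call at an adjusted p under 0.05. SE came from the estimate and its F statistic. On simulated counts of these 16353 genes, 100 genes drawn at any level were changed 1.5-fold and 100 were changed 2-fold. The test recovered 47% of 1.5-fold and 66% of 2-fold changes, so missed changes of that size are possible. Fewer genes were changed there than were called in the data, so these shares do not give the power for the members. Alternatives were DESeq2 1.42.0, limma 3.58.1 on log2(TPM + 1) and log2(TPM + 0.1) with a mean TPM of 1 or more or unfiltered, other scalings, no count filter, a replicate block and leaving out each library. Library pairs within groups were checked for double deposit: their counts differed by more than sampling noise (chi-square of 8.38 to 32.5 per degree of freedom), which does not show that they are independent samples. Some planned ratios and list genes are not reported here. Members and lists were chosen with earlier results of these data known. The genes named were ZNF469, the members, up to 4 genes per list with the lowest p, 3 nearest profiles each for PYCR1, ALDH18A1 and GLUL, and copies of members (GLUD2). CAD, GCLC, GCLM, GSS, SLC1A5, MYC, SLC1A4 and SLC3A2 fall outside that rule and were named for their role after their values were seen. Coordinates and promoters are RefSeq's on GRCh38.p14, and overlaps between genes are from GENCODE release 29.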

Additional observations from a re-analysis of the deposited data

How the results depend on the processing

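ZNF469, PYCR1 and ALDH18A1 kept their direction and call in all 14 alternatives. Of the 46 genes named by the rule, 34 were called, 21 of them in every alternative, 13 lost the call somewhere and 0 reversed. GLUL lost its call on TPM only (adjusted p = 0.479 to 0.539), PYCR3 in 12 alternatives (adjusted p up to 0.184) and ALDH4A1 in 8 (up to 0.117). In edgeR the number of genes called higher was 745 and of genes called lower 874. DESeq2 called 1646 genes higher and 1648 lower, and 6 pathway list genes higher. Limma called 248 genes higher and 558 lower on log2(TPM + 1), 233 and 529 on log2(TPM + 0.1), and 208 and 472 without the filter, with 0 members higher each time and 1, 1 and 0 pathway list genes higher against 3 in edgeR. The DESeq2 and limma fits differ from edgeR in more than 1 respect, and the cause was not tested. Leaving out 1 library left 204 to 769 genes higher and 333 to 854 lower, 1 to 2 members higher, 0 to 2 pathway list genes higher and 13 to 20 lower, lowest without shZNF469 replicate 1 for genes higher and without shControl replicate 1 for genes lower. The summed ALDH18A1, PYCR1 and PYCR3 over ALDH4A1 differed by -0.80 on the log2 scale from CPM and by -0.87 to -0.78 from TPM without 1 library, alternatives chosen after seeing the data. Whether replicate numbers pair the libraries is not known. Correlations of same-numbered deviations were -0.023, 0.076 and 0.033, and those of other pairs ran from -0.103 to 0.0606. These cannot decide the matter, since deviations within a group of 3 sum to 0. With the replicate block 592 genes were higher and 736 lower, and PYCR3 did not pass (adjusted p = 0.0886). Of the named genes, 2 changed sign without a call (PEPD and GLUD2). The proline share of transcript-weighted protein was planned and not run, as protein sequences were not used here. PYCR3 had 201 to 294 reads per library, and whether depth bears on its lost calls was not tested.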
